A study of Saccharomyces cerevisiae with 12 samples.

Results

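CDC6, SIC1, PCL2, PCL9 and NIS1 are 5 budding yeast genes that are known to be transcribed as cells leave mitosis and enter early G1, with the transcription factor Swi5 among their activators. They were taken by name, matched to the systematic identifiers of the count table, and all 5 were found among its 6219 genes and were among the 5654 genes tested. RNA from log-phase cultures was counted in 4 strains of the W303 background with 3 replicates each. The strains were DY150 (WT, MATa), DY3420 (WT, MATalpha), DY19304 (tup1(S649F), MATa) and DY19306 (tup1(S649F), MATalpha). All 4 also carried his3-11,15, ade2-1, ura3-1, can1-100, trp1-1 and the paired leu2 mutations leu2-3 and leu2-112. Tup1 is a corepressor that DNA-binding proteins bring to promoters, and the mutant strains carried a point change in it. Each group was a single strain, and the labels do not say whether its replicates were separate cultures, so p-values measure only the spread between these samples.

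Swi5 is a zinc-finger activator that cyclin-dependent kinase holds in the cytoplasm until mitotic exit, when the phosphatase Cdc14 helps to release it into the nucleus. The products of the 5 genes set up the next cycle. Sic1 inhibits the kinase Cdc28 bound to B-type cyclins, and Cdc6 loads the Mcm2-7 helicase onto origins of replication. Pcl2 and Pcl9 are cyclins of the kinase Pho85, and Nis1 is a protein of the bud neck. Early G1 is also when haploid cells respond to mating pheromone, through the activator Ste12, and arrest. The cultures were not synchronised, so a lower level in fewer G1 cells and less RNA per G1 cell cannot be told apart in these bulk samples.

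Each gene is a single coding exon on the + strand with no annotated gene overlapping it in the R64 reference. CDC6 (YJL194W) lies on chromosome X from 69338 to 70879, and SIC1 (YLR079W) on chromosome XII from 286820 to 287674. PCL2 (YDL127W) and PCL9 (YDL179W) lie on chromosome IV, from 234927 to 235853 and from 138291 to 139205. NIS1 (YNL078W) lies on chromosome XIV from 479768 to 480991. CDC6, SIC1 and NIS1 are transcribed away from their upstream neighbours ELO1, BOS1 and TPM1, while PCL2 and PCL9 follow VCX1 and AIT1 on the same strand. PCL2 and PCL9 encode related proteins, but the longest identical run of their coding sequences was 17 bases, and no 30-base word of any of the 5 coding sequences occurred elsewhere in the genome.

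The stretches that hold the matches to the Swi5 core are printed here, since the 5 genes were grouped by that regulator but differ in how many copies they carry and in where these lie. They are from the R64 reference of RefSeq (strain S288C, not W303), + strand, 5′ to 3′, with 15 bases on either side of the outer matches. Capitals mark the core ACCAGC or GCCAGC, read as GCTGGT or GCTGGC on the opposite strand, and the pheromone response element TGAAACA, the Ste12 binding sequence, read as TGTTTCA on the opposite strand. The stretches are chrX:69170-69205 (CDC6), chrXII:286638-286697 (SIC1), chrIV:234386-234587 (PCL2), chrIV:137951-138030 (PCL9) and chrXIV:479399-479663 (NIS1).
CDC6: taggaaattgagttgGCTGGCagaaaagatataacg
SIC1: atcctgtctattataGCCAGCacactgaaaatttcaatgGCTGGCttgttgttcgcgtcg
PCL2: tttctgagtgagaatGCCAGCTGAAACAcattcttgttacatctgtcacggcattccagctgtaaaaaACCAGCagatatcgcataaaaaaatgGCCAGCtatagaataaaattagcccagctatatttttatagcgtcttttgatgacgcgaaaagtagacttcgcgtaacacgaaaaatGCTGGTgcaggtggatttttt
PCL9: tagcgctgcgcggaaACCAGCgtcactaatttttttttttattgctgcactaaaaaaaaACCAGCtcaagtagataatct
NIS1: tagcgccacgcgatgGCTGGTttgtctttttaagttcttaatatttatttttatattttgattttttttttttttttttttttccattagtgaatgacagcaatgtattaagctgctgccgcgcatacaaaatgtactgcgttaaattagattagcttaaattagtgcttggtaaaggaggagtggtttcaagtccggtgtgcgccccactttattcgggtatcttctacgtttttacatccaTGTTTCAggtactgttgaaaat

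In the 600 bases before the start codon, both strands searched, PCL2 held 4 cores, SIC1 and PCL9 held 2 each, and CDC6 and NIS1 held 1 each. Over the same window, 26.3% of the 5512 tested genes with a window held at least 1 such core and 4.25% held 2 or more. With the A spelling alone, PCL2 and PCL9 held 2 cores, NIS1 held 1, and CDC6 and SIC1 held 0, against 16.3% of genes with at least 1. The G spelling was added after the sequences had been seen. The cores of CDC6 and SIC1 lay between 138 and 167 bases before the start codon, and those of PCL2, PCL9 and NIS1 between 276 and 526 bases before it. The pheromone response element was found once in PCL2 and once in NIS1 and not in the other 3 windows, against 14.2% of genes. In PCL2 it directly follows the outermost core, and in NIS1 it lies 126 to 120 bases before the start codon, far from the core. A match is a run of letters in the reference, not a measured binding site, and the windows of CDC6 and SIC1 reach into the genes upstream, which start 555 and 260 bases away.

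**Figure D1:**
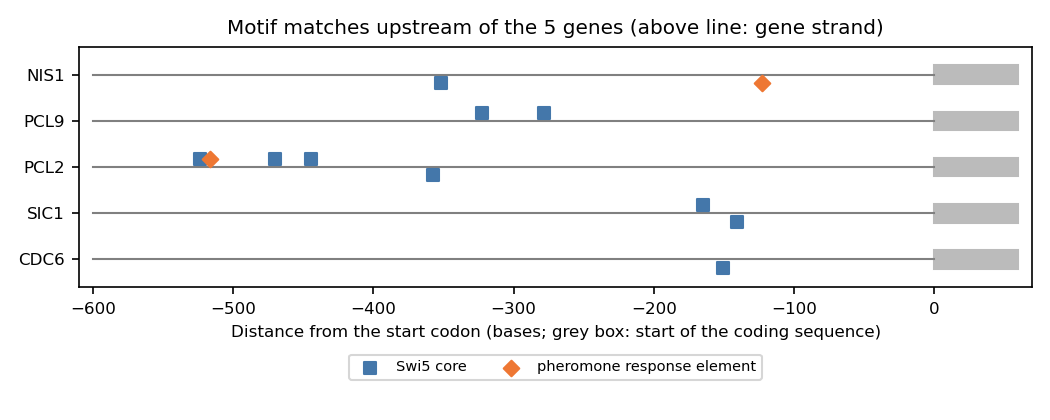
Matches to the Swi5 core and to the pheromone response element in the 600 bases before the start codon of each gene, by distance from the start codon in bases; marks above a line read on the gene's strand and marks below it on the other. PCL2 holds 4 cores and PCL9 holds 2, and only PCL2 and NIS1 of the 5 genes hold a pheromone response element.

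Library totals ran from 5657714 to 9300353 counts, and the 5 genes had between 165 and 968 counts in each library. The WT replicates of a strain differed little beyond counting error (chi-square per degree of freedom 1.40 to 2.68), the tup1 replicates differed more, and tup1 MATa replicate 1 stood apart from the other two (21.0 and 28.3, against 4.08 between those). Marker genes of mating type followed the labels in WT: the 7 a-specific genes summed to 1805 to 1874 CPM in WT MATa and 25.1 to 26.3 CPM in WT MATalpha, and the 4 alpha-specific genes to 42.1 to 47.6 and 2660 to 2927 CPM. In the tup1 MATalpha libraries both lists were high, at 1819 to 2687 CPM for the a-specific and 7113 to 10634 CPM for the alpha-specific genes, while tup1 MATa kept the alpha-specific genes at 48.0 to 52.5 CPM. CPM are depth-scaled counts with TMM factors, and levels are compared between genes only as CPM per kilobase of coding sequence.

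Levels of the 5 genes differed within WT. Per kilobase, NIS1 was the highest in WT MATa, at 72.6 ± 4.72 CPM per kb (SD, n = 3), followed by PCL9 at 56.4 ± 2.79 and SIC1 at 53.8 ± 1.27, whose ranges overlapped. CDC6 followed at 30.7 ± 2.71 CPM per kb and PCL2 was the lowest, at 24.4 ± 0.341. The order was the same in WT MATalpha, where the ranges of CDC6 and PCL2 overlapped. In tup1 MATalpha PCL2 stood second, at 79.0 ± 14.0 CPM per kb, between NIS1 at 126 ± 16.9 and PCL9 at 45.1 ± 3.38.

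SIC1, the inhibitor of B-type cyclin kinase, was lower in tup1 MATalpha and did not pass the test in tup1 MATa. Its levels were 46.0, 47.1 and 44.9 CPM in WT MATa and 48.9, 50.2 and 51.1 CPM in tup1 MATa (replicates 1 to 3 in order, here and for the other genes). In WT MATalpha they were 45.8, 48.4 and 44.8 CPM and in tup1 MATalpha 38.3, 41.1 and 36.0 CPM. The libraries of tup1 did not overlap those of WT in either mating type, lying above them in MATa and below them in MATalpha. Such separation was common: it held for 50.4% of all genes tested in MATa and for 68.5% in MATalpha. Statements on overlap for the other genes are to be read against the same shares. In MATalpha the log2 fold change was −0.27 ± 0.08 (SE; adjusted p = 0.00457, edgeR's quasi-likelihood test with Benjamini-Hochberg adjustment over all 5654 genes, as for every adjusted p given here). In MATa it was 0.12 (95% interval −0.03 to 0.27; adjusted p = 0.190), so a rise of that size was not shown. The change in MATalpha was 0.39 ± 0.10 lower than that in MATa on the log2 scale, a difference that passed its own test (interaction, adjusted p = 0.0107).

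CDC6, the loader of the replicative helicase, rose in tup1 MATa and did not pass the test in MATalpha. Its levels were 48.4, 50.9 and 42.7 CPM in WT MATa and 67.0, 59.5 and 50.6 CPM in tup1 MATa, where the lowest tup1 library lay just under the highest WT library. In MATalpha they were 49.5, 49.6 and 46.3 CPM in WT and 46.7, 46.9 and 49.9 CPM in tup1, with overlapping groups. CDC6 rose in tup1 MATa (log2 fold change 0.31 ± 0.09 SE, adjusted p = 0.0105). The MATalpha difference was −0.02 (95% interval −0.22 to 0.18; adjusted p = 0.870). The 2 effects were not shown to differ, at −0.33 ± 0.13 (MATalpha minus MATa, adjusted p = 0.0743), though the test passed once tup1 MATa replicate 3 was left out (adjusted p = 0.0132) and under upper-quartile scaling (adjusted p = 0.0392). The rise in MATa did not pass the test under upper-quartile scaling (0.21, adjusted p = 0.0623), nor once WT MATa replicate 3 was left out (0.26, adjusted p = 0.0570). The highest of the tup1 MATa libraries was replicate 1, which stood apart; without it the change was 0.22 (adjusted p = 0.0471).

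PCL2 had the largest change of the 5 genes, in tup1 MATalpha. This cyclin of Pho85 stood at 22.5, 22.5 and 23.0 CPM in WT MATa, 27.0, 23.1 and 29.1 CPM in WT MATalpha and 26.9, 27.6 and 27.0 CPM in tup1 MATa. In tup1 MATalpha it stood at 83.7, 58.8 and 77.4 CPM, above every library of the other 3 groups. It rose 2.76-fold in tup1 MATalpha (log2 fold change 1.46 ± 0.11 SE, adjusted p = 9.78e-10). In MATa the difference was 0.26 (95% interval 0.00039 to 0.52), and tup1 and WT libraries did not overlap, as for 50.4% of all genes. The difference did not pass the test (adjusted p = 0.101). It passed in 2 of 18 alternatives, a fit of only the 2 groups compared (adjusted p = 0.0388) and a fit without tup1 MATalpha replicate 2 (adjusted p = 0.0291). The effect in MATalpha exceeded that in MATa by 1.20 ± 0.17 on the log2 scale (adjusted p = 3.96e-05).

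PCL9, the other Pho85 cyclin of the group, fell where PCL2 rose. Its levels were 50.3, 54.5 and 49.9 CPM in WT MATa, 56.4, 49.9 and 55.5 CPM in WT MATalpha, 44.5, 52.0 and 52.4 CPM in tup1 MATa and 38.8, 40.3 and 44.8 CPM in tup1 MATalpha. The tup1 MATalpha libraries lay below all WT libraries, and tup1 MATa overlapped WT MATa. PCL9 fell in tup1 MATalpha (log2 fold change −0.39 ± 0.09 SE, adjusted p = 0.000696), while the difference in MATa was −0.06 (adjusted p = 0.624). The ratio of PCL2 to PCL9 per kilobase was 0.434 ± 0.0247 in WT MATa, 0.483 ± 0.0310 in WT MATalpha and 0.543 ± 0.0476 in tup1 MATa (SD, n = 3). It was 1.76 ± 0.348 for tup1 MATalpha, so PCL2 was the more abundant of the pair per kilobase in tup1 MATalpha and the less abundant in the other 3 groups. The interaction of PCL9 did not pass its test (−0.33 ± 0.12, adjusted p = 0.0539), and it passed under 4 of 17 alternatives, with an adjusted p as low as 0.00681.

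NIS1, which encodes a bud-neck protein, rose in both mating types. Its levels were 82.2, 92.4 and 91.9 CPM in WT MATa and 94.6, 117.5 and 113.7 CPM in tup1 MATa, and 90.3, 96.0 and 97.6 CPM in WT MATalpha against 173.7, 132.6 and 157.0 CPM in tup1 MATalpha. Neither pair of groups overlapped, and every tup1 MATalpha library lay above every other library. The rise was 0.29 ± 0.09 on the log2 scale in MATa (adjusted p = 0.0206) and 0.71 ± 0.09 in MATalpha (1.63-fold, adjusted p = 2.89e-06), and it was larger in MATalpha by 0.42 ± 0.13 (adjusted p = 0.0286). In MATa it no longer passed under upper-quartile scaling (0.18, adjusted p = 0.137), nor without any of WT MATa replicate 1 (adjusted p = 0.0924), tup1 MATa replicate 2 (0.0951) or tup1 MATa replicate 3 (0.0746). The interaction call was lost under 7 of 17 alternatives, with adjusted p up to 0.0821.

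**Figure D2:**
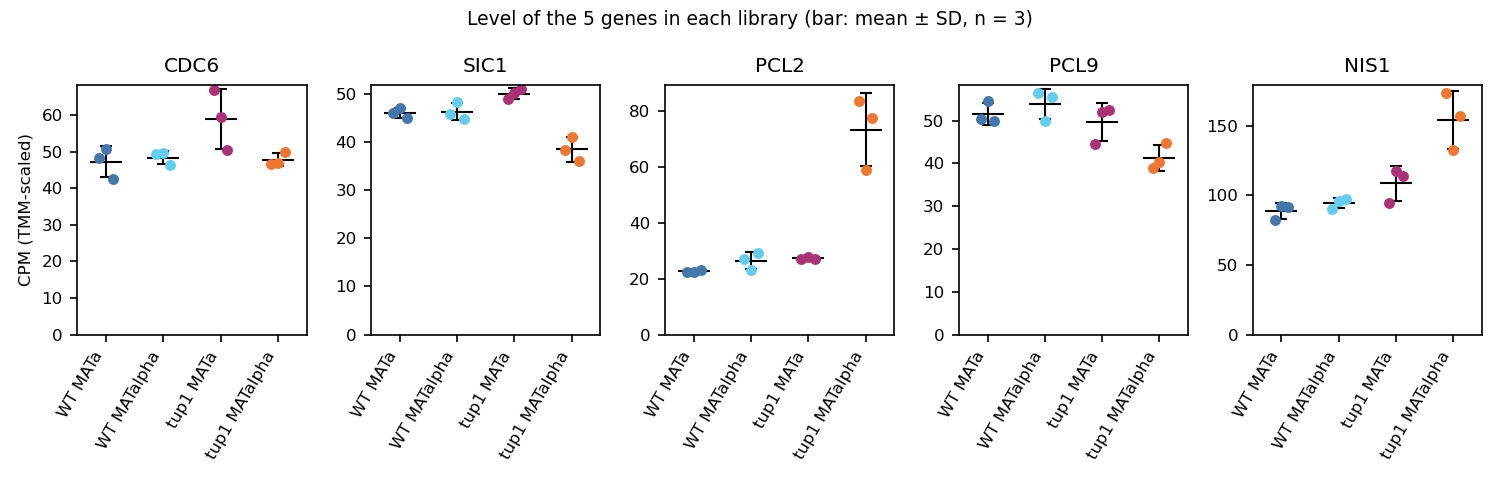
Level of each gene in CPM (TMM-scaled) in each library, by group; points are libraries and bars are the mean ± SD of 3 replicates. PCL2 and NIS1 are highest in the 3 tup1 MATalpha libraries, at 58.8 to 83.7 and 132.6 to 173.7 CPM, and SIC1 is lowest there; PCL9 has its lowest mean there, but tup1 MATa replicate 1 overlaps those libraries.

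Counted together in MATa, 2 of the 5 genes rose in tup1 (CDC6 and NIS1) and 0 fell, against 24.7% of all genes tested called higher and 16.7% called lower. In MATalpha 2 rose (PCL2 and NIS1) and 2 fell (SIC1 and PCL9), against 32.0% called higher and 31.0% called lower. The 5 genes thus did not move as a unit in MATalpha, and these 4 calls were kept in all 18 alternatives. Libraries of tup1 and WT did not overlap for 3 genes in MATa and 4 in MATalpha, against 50.4% and 68.5% of all genes. For the interaction, 2 genes were called higher (PCL2 and NIS1) and 1 lower (SIC1), against 12.4% and 11.5% of all genes; the calls of SIC1 and PCL2 were kept in all 17 alternatives. Of these genes, PCL2 and NIS1 rose by more than most genes: 91.0% of genes tested had a log2 fold change at or below that of PCL2 in MATalpha, and 82.5% at or below that of NIS1. With upper-quartile scaling the median of all genes moved from −0.01 to −0.12 in MATa and from −0.03 to −0.18 in MATalpha, and the share of calls that were higher fell from 59.6% to 38.5% and from 50.8% to 37.5%.

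**Figure D3:**
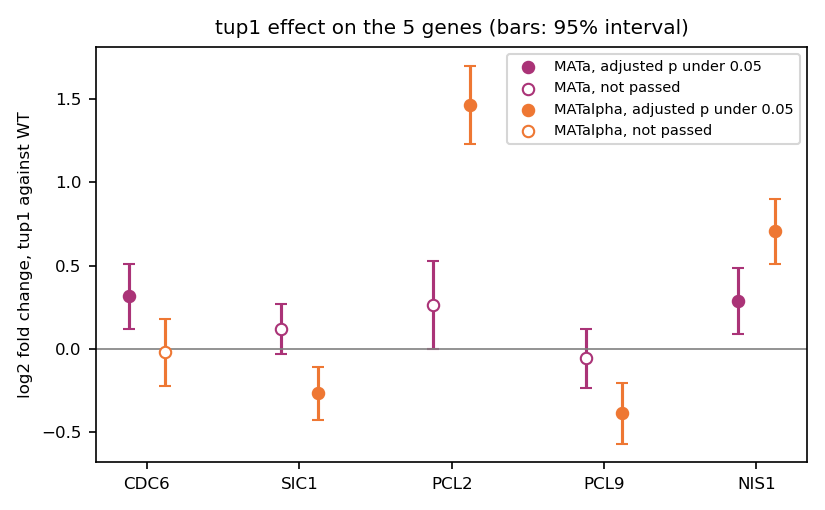
Log2 fold change of tup1 against WT for each gene in MATa and in MATalpha; bars are 95% intervals and the line at 0 is no change. PCL2 and NIS1 lie above 0 in MATalpha at 1.46 and 0.71, SIC1 and PCL9 below it at −0.27 and −0.39, and CDC6 on it at −0.02.

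Mating type alone made no difference that passed the test. Between WT MATalpha and WT MATa 0 of the 5 genes were called higher and 0 lower, against 0.531% and 0.371% of all genes; no unadjusted p was below 0.05, the smallest being 0.0879, for PCL2, and DESeq2 called none either. PCL2 had the largest difference, 0.22 (95% interval −0.04 to 0.48; adjusted p = 0.388), with WT MATalpha libraries at 23.1 to 29.1 CPM just above the 22.5 to 23.0 CPM of WT MATa. For the other 4 the differences were between 0.01 and 0.09. Groups did not overlap for 1 of the 5 genes, against 34.2% of all genes. Between the tup1 strains, in contrast, 2 genes were called higher in MATalpha, PCL2 (1.42 ± 0.11, adjusted p = 1.01e-08) and NIS1 (0.51 ± 0.09, adjusted p = 0.000364), against 17.8% of genes, and 3 lower, against 17.2%. Those were SIC1 (−0.38 ± 0.08, adjusted p = 0.000694), CDC6 (−0.30 ± 0.10, adjusted p = 0.0189) and PCL9 (−0.26 ± 0.09, adjusted p = 0.0263), the last with overlapping groups. Between the tup1 strains groups did not overlap for 4 of the 5 genes, against 40.3% of all genes. The CDC6 call was lost in 3 and the PCL9 call in 6 of 18 alternatives, with adjusted p up to 0.0764 and 0.0960.

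Other genes known to be transcribed from late mitosis into early G1 were higher more often than lower in MATa and split in MATalpha. Of 15, 10 rose and 1 fell in MATa (median log2 fold change 0.43, against −0.01 for all genes), beside 24.7% of all genes called higher and 16.7% called lower. In MATalpha 6 rose and 5 fell (median 0.07, against −0.03), beside 32.0% and 31.0%, shares against which the MATa and MATalpha counts of the further lists are likewise to be read. With upper-quartile scaling 8 rose and 4 fell in MATa, and 5 rose and 7 fell in MATalpha, where the median became −0.08. PIR3, a cell wall protein, rose most, by 5.11 in MATa and 6.01 in MATalpha on the log2 scale, from 7.47 ± 0.907 to 257 ± 25.6 CPM and from 8.18 ± 0.967 to 521 ± 34.9 CPM. The repressors ASH1 and RME1 rose in both mating types, ASH1 by 0.50 and 0.58 and RME1 by 0.63 and 0.87, and so did the chitinase CTS1, by 0.79 and 0.61. HO, the mating-type switching endonuclease, rose by 0.91 in MATa and stood at −0.07 in MATalpha (adjusted p = 0.545), and its interaction passed the test (−0.97, adjusted p = 1.79e-05). EGT2, which acts in cell separation, rose by 0.31 in MATa and fell by 0.38 in MATalpha, and PRY3 fell by 0.89 in MATalpha; in MATa the EGT2 call was lost with upper-quartile scaling and without tup1 MATa replicate 2.

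SWI5 itself did not differ by the test, at 0.11 in MATa (adjusted p = 0.384) and −0.06 in MATalpha (adjusted p = 0.595). Among 9 regulators of the mitosis-to-G1 transition, SWI5 included, 0 rose and 2 fell in MATa. In MATalpha 0 rose and 7 fell (median −0.39). CDC14, whose phosphatase helps to release Swi5, and NET1, its nucleolar anchor, each fell by 0.25 in MATa and by 0.46 in MATalpha. NDD1, a coactivator of SWI5 transcription, fell by 0.42 in MATalpha. The mitotic exit network had 3 of 9 genes higher and 1 lower in MATa, and 3 higher and 4 lower in MATalpha. These shares lie near those of all genes in MATalpha, and with upper-quartile scaling the counts were 2 and 2 in MATa and 3 and 5 in MATalpha. BUB2, a brake on the network, rose by 1.09 in MATa and by 0.87 in MATalpha, effects not shown to differ (interaction, adjusted p = 0.486).

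Among the partners of the 5 products, the genes for origin licensing beside CDC6 had 2 of 13 higher and 5 lower in MATa and 0 higher and 8 lower in MATalpha (medians −0.16 and −0.22). With upper-quartile scaling these counts were 0 and 7 in MATa and 0 and 11 in MATalpha. The origin recognition genes ORC2 and ORC1 fell by 0.64 and 0.53 in MATalpha and the helicase subunit MCM6 by 0.45. TAH11, whose product loads the helicase together with Cdc6, fell by 0.24 and 0.25, calls that were lost in 10 and 3 of 18 alternatives. Of 14 genes for the kinase that Sic1 inhibits and for the destruction of Sic1, 4 rose and 2 fell in MATa and 5 rose and 3 fell in MATalpha, among them CDC28, which rose by 0.44 in MATalpha. With upper-quartile scaling the balance turned, to 2 higher and 3 lower in MATa and 2 higher and 4 lower in MATalpha. Beside PCL2 and PCL9, Pho85 and its other cyclins had 2 of 9 genes higher and 0 lower in MATa (2 and 2 with upper-quartile scaling) and 2 higher and 4 lower in MATalpha (the same with that scaling). PCL1, a G1 cyclin related to PCL2, rose by 0.57 and 0.67, PCL5 by 0.86 and 2.37, and PCL6 fell by 0.71 in MATalpha; PHO85 stood at 0.02 (adjusted p = 0.852) and −0.22 (adjusted p = 0.0198, a call lost with DESeq2 and without tup1 MATalpha replicate 1). The bud neck genes beside NIS1 had 0 of 10 higher and 3 lower in MATa and 0 higher and 5 lower in MATalpha, with BNI4 at −0.52, SHS1 at −0.41 and NAP1 at −0.32. With upper-quartile scaling 5 and 7 of these were lower.

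**Figure D4:**
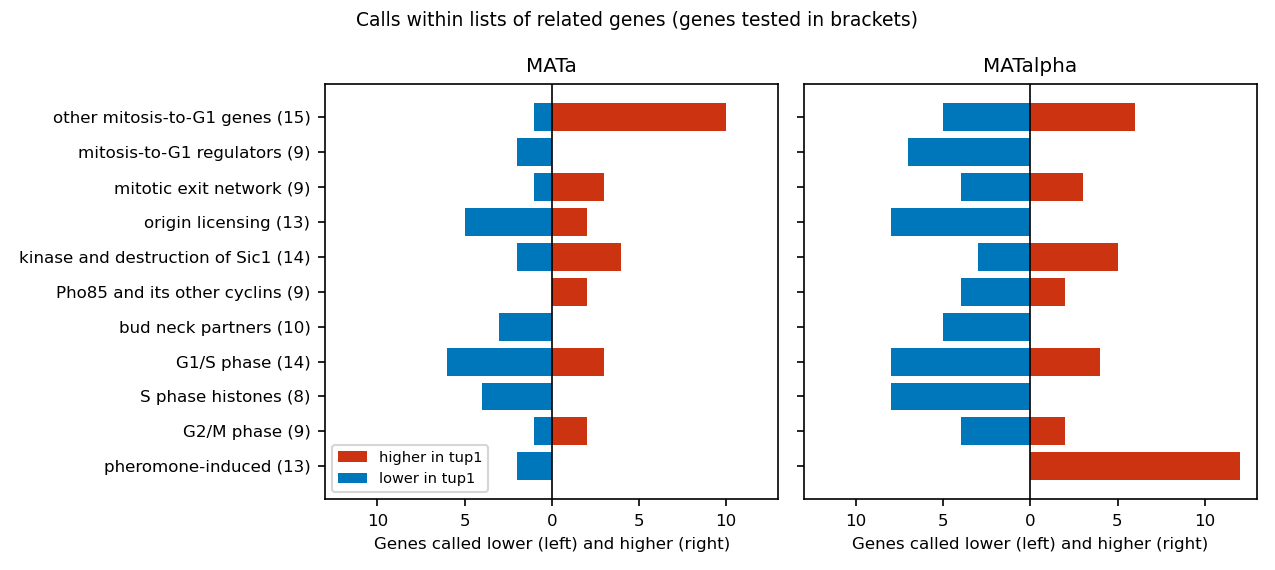
Number of genes called lower (left) and higher (right) in tup1 in each list of related genes, for MATa and MATalpha, with the number of genes tested in brackets. The pheromone-induced genes have 12 of 13 called higher in MATalpha and 0 in MATa, and the histone genes 8 of 8 called lower in MATalpha.

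Other phase and pheromone genes moved in the same libraries as PCL2 and NIS1. Of 13 pheromone-induced genes, 12 rose in tup1 MATalpha (median 3.60, against −0.03 for all genes), STE12, named after its value was seen, being the exception at 0.15 (adjusted p = 0.153), and 0 rose and 2 fell in MATa (median −0.31). FUS1, a cell fusion protein, rose by 3.38 in MATalpha and fell by 1.91 in MATa, and FAR1, which arrests the cycle in G1, rose by 1.11 in MATalpha and stood at −0.03 in MATa (adjusted p = 0.831). The 13 genes summed to 5124, 3041 and 3833 CPM in tup1 MATalpha replicates 1 to 3, against 541 to 565 in WT MATa, 581 to 633 in WT MATalpha and 453 to 505 in tup1 MATa. PCL2 and NIS1 had the same order over those 3 libraries, replicate 1 highest and replicate 2 lowest, and PCL9 had replicate 1 lowest. The order of PCL2 and NIS1 was also that of the a-specific genes (2687, 1819 and 2176 CPM) and the alpha-specific genes (10634, 7113 and 8978 CPM). The S phase histones summed in the reverse order. So did the other genes of late mitosis and early G1, at 5825, 6517 and 6026 CPM in replicates 1 to 3. The remaining lists had other orders. An order of 3 libraries cannot tell the pheromone-induced, a-specific and alpha-specific lists apart. The part of the pheromone-induced genes in the changes of PCL2 and NIS1 was not tested. The 8 histone genes of S phase summed to 944 to 1187 CPM in tup1 MATalpha against 1768 to 1839 in WT MATalpha, and 8 of 8 fell (median −0.82), with 4 of 8 lower in MATa (median −0.20). These histone genes exist in near-identical copies, so the values of single copies are uncertain. The genes of the G1/S transition had 3 of 14 higher and 6 lower in MATa and 4 higher and 8 lower in MATalpha, and the G2/M genes 2 of 9 higher and 1 lower in MATa and 2 higher and 4 lower in MATalpha. With upper-quartile scaling the G2/M counts were 1 higher and 3 lower in MATa and 0 higher and 6 lower in MATalpha.

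**Figure D5:**
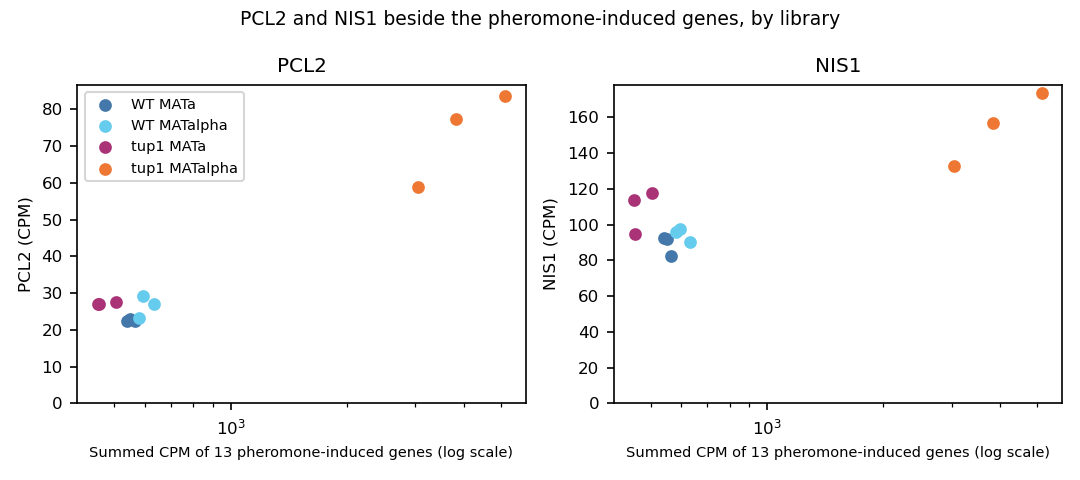
PCL2 and NIS1 in CPM in each library against the summed CPM of 13 pheromone-induced genes (log scale), points coloured by group. The 3 tup1 MATalpha libraries lie apart at 3041 to 5124 summed CPM, and their order in PCL2 and in NIS1 is that of the summed CPM. The summed a-specific and alpha-specific genes have that order too.

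The genes nearest in pattern to each of the 5 were found by the root mean square difference of log2 CPM over the 12 libraries, each gene centred on its own mean. For PCL2 they were ECL1 (0.130), the pheromone response kinase FUS3 (0.131) and KTR2 (0.147). For NIS1 they were GIC2 (0.0819), FPT1 (0.0842) and the mitochondrial 21S_rRNA (0.0866). The libraries were made after removal of ribosomal RNA, and the part of that removal in the 21S_rRNA counts was not tested. For SIC1 they were ADP1 (0.0530), HUT1 (0.0574) and ABZ1 (0.0647), for PCL9 KIN4 (0.0482), PRP22 (0.0593) and TYW1 (0.0617), and for CDC6 KAR2 (0.0641), SOL2 (0.0773) and YHP1 (0.0860). Double the smallest difference took in 42 genes for PCL2, 60 for CDC6, 103 for NIS1, 112 for SIC1 and 123 for PCL9. The genes named were thus the nearest of many. Among the 5 genes themselves the closest pair was PCL9 and SIC1 at 0.137, and the farthest was PCL2 and PCL9 at 0.812. PCL9 and SIC1 varied little themselves, with root mean squares of 0.168 and 0.148 around their own means. There were 750 genes nearer to PCL9 than SIC1 was. PCL2 and NIS1, both highest in tup1 MATalpha, differed by 0.385, and 2457 genes lay nearer to NIS1 than PCL2 did.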

How the data were processed

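The authors deposited raw read counts per gene as 1 table of 6219 genes and 12 libraries, each column matched to its sample by name. The submitters' processing notes name the builds sacCer3 and R64 and, as tools, featureCounts 1.6.3 (Subread), STAR 2.7.3 and cutadapt 2.8. Per the labels' protocols, libraries came from a stranded total RNA preparation after removal of ribosomal RNA. The role of each tool, the strand setting and the handling of multi-mapping reads were not given in the sources used here.

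The analysis used edgeR 4.0.16 (R 4.3.3): filterByExpr by group (minimum count 10, 5654 genes kept), TMM scaling, and 1 robust quasi-likelihood fit of the 4 group means over all 12 libraries, with 8 residual degrees of freedom. The 5 contrasts were two-sided, with Benjamini-Hochberg adjustment over all genes tested and a threshold of 0.05. Log2 fold changes carry SE, and intervals are 95%. Alternatives were RLE and upper-quartile scaling, no filter, DESeq2 1.42.0, fits of only the compared groups, a replicate block, and leaving out each library. Identifiers were matched by locus tag to the RefSeq R64 gene table (5811 matched, 408 not), which with its genome gave positions and sequences. The 5 genes and the 13 lists of related genes (126 genes, all tested) were chosen with earlier results of these data known. Genes named from a list are 11 chosen by name and, per list and comparison, some of the 4 called genes with the largest changes. One item of the lists is not reported here. No other files were used.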

Additional observations from a re-analysis of the deposited data

Results flagged for a closer look

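For 3 of the 5 genes the tup1 effect differed between the mating types by a test of the difference itself, edgeR's quasi-likelihood interaction test, which called 12.4% of all genes higher and 11.5% lower. The log2 difference, MATalpha minus MATa, was −0.39 for SIC1 (adjusted p = 0.0107), 1.20 for PCL2 (adjusted p = 3.96e-05) and 0.42 for NIS1 (adjusted p = 0.0286). Leaving out tup1 MATa replicate 1, which stood apart from its group, gave −0.42, 1.18 and 0.31, with adjusted p of 0.00483, 4.66e-05 and 0.0445. The SIC1 and PCL2 calls were kept in all 17 alternatives, and that of NIS1 was lost in 7, with adjusted p up to 0.0821.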

How the results depend on the processing

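Over the 25 log2 fold changes of the 5 genes, 411 of 445 values under alternatives kept their direction and side of the threshold, 22 lost a call, 8 gained one and 4 changed sign, all 4 from values within 0.1 of 0. Upper-quartile scaling gave 0 of the 5 genes higher and 1778 of all genes lower in MATa, and for the interaction 1 of the 5 higher and 3 lower. DESeq2 gave 34 genes lower between the WT strains. A fit of only the 2 groups compared gave 520 genes higher and 571 lower between the WT strains, and between the tup1 strains 1 of the 5 genes and 538 of all genes lower. Leaving out each library in turn gave 1 to 3 of the 5 genes higher in MATa, 1 to 2 higher and 1 to 2 lower for the interaction, and 1 to 3 lower between the tup1 strains. Over all genes it gave 617 to 1034 lower in MATa, 480 to 998 lower for the interaction, and 11 to 179 higher and 11 to 220 lower between the WT strains, the highest without tup1 MATa replicate 1. With a library left out, the log2 fold change ran from −0.10 to 0.0278 for PCL9 in MATa (−0.16 with upper-quartile scaling), and between the WT strains from −0.0293 to 0.0898 for CDC6 and from −0.0214 to 0.0306 for SIC1 (−0.00407 without WT MATa replicate 3). Among the lists, leaving out a library gave 1 to 4 histone genes lower in MATa (1 without WT MATa replicate 3 or tup1 MATa replicate 2), as few as 1 licensing gene lower there (without WT MATa replicate 3), and as few as 2 genes for the kinase or the destruction of Sic1 higher in MATalpha (without WT MATalpha replicate 3). The cause of these shifts was not tested.

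The labels do not say that replicate numbers mark shared cultures or days, and a pairing by number was not shown. Of 18 correlations of same-numbered deviations 1 was over 0.1, and they ran from −0.29 to 0.12. The lowest was for replicate 1 of tup1 MATa and tup1 MATalpha. With a replicate block, 19 genes were called higher between the WT strains against 30 without it, and the calls of the 5 genes did not change.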
